A study of Mus musculus with 2 samples.

Results

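Fibronectin and a set of integrin subunits, most of them of its receptors, were followed across the cell classes of PyMT-M and PyMT-N mouse mammary tumors. The 8 genes, of 33696 listed with the counts, were Fn1 (ENSMUSG00000026193), the α subunits Itga5 (ENSMUSG00000000555), Itga4 (ENSMUSG00000027009), Itga6 (ENSMUSG00000027111) and Itgav (ENSMUSG00000027087), and the β subunits Itgb1 (ENSMUSG00000025809), Itgb3 (ENSMUSG00000020689) and Itgb5 (ENSMUSG00000022817). They were chosen by name as a ligand and integrin subunits grouped with it. Their levels and shares of positive cells in these same libraries were already known, so what follows is a description and carries no test.

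Fibronectin is a large secreted glycoprotein that cells assemble into fibrils in the extracellular matrix, and its upkeep by endothelial cells and fibroblasts is a known feature of growing and remodelling vessels. Integrins are heterodimers of an α and a β subunit, and the pairing sets the ligand. α5β1 is the main fibronectin receptor and the αv integrins bind fibronectin, vitronectin and other RGD ligands, while α4β1 binds an alternatively spliced segment of fibronectin and VCAM-1. α6β1 is a laminin receptor, so Itga6 is the member least tied to fibronectin.

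PyMT-M and PyMT-N are sublines of the MMTV-PyMT mammary tumor model, in which the mammary tumor virus promoter drives the polyoma middle T antigen, and the study classed them as High-MAC (macrophage-rich) and Low-MAC (not macrophage-rich). Tumors were grown in the mammary fat pad of young adult female C57BL/6 mice, and no treatment was named for either group. Live cells were depleted of CD45+ and Ter119+ cells on magnetic beads, enriched on beads with antibodies to CD31 and CD144, and sorted as CD31+ CD144+. Cells of 3 tumors were pooled into 1 library per subline before 10x Genomics 3′ sequencing, so a difference between PyMT-M and PyMT-N has no replicate check, and the subline cannot be told apart from the library.

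Levels are CPM, the UMIs of a gene (molecules counted once by their molecular identifier) per 1000000 UMIs of all cells of a class. Exact Poisson intervals at 95% are given, which cover counting error only. They leave out the spread between cells, so they are too narrow where few cells hold most UMIs of a gene. The same holds for the intervals of ratios. A 3′ library counts each molecule once whatever its length, so CPM values were not divided by length, and capture of the 3′ end can still differ between genes. Of the deposited barcodes 6719 were kept in PyMT-M and 5607 in PyMT-N, with medians of 21262 and 18558 UMIs per cell and 12 barcodes present in both.

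Cells were classed on genes other than the 8. Blood endothelial cells (Pecam1, Flt1, Emcn and Kdr) numbered 583 in PyMT-M and 1013 in PyMT-N, lymphatic cells (Prox1, Mmrn1 and Reln) 20 and 204, fibroblasts (Col3a1) 45 and 53, and Ptprc+ cells, Ptprc being the CD45 gene, 441 and 278. The largest class, meant to hold the tumor cells and defined by Krt8, Krt18 and Rhox5 without Pecam1 or Flt1, held 4849 cells in PyMT-M and 3278 in PyMT-N, although the sort was for endothelial cells. Other markers matched the blood endothelial, lymphatic and fibroblast classes, with 7 of 7, 4 of 4 and 6 of 6 at 10 CPM or more in both libraries. In the largest class 0 of 6 further epithelial markers (Epcam, Cdh1, Krt7, Krt19, Cldn4 and Cldn7) reached 10 CPM in either library, and Krt18 stood at 0.067 CPM in PyMT-M against 1006 CPM in PyMT-N, so it is called here by its rule, Krt8/Krt18/Rhox5+ cells. Blood endothelial cells were shallower in PyMT-M, with a median of 5197 UMIs per cell against 12397 in PyMT-N. Shares of cells with a UMI are therefore given also after cells were thinned to 3000 UMIs. Cells below that depth were left out, among them 106 blood endothelial cells of PyMT-M and 7 of PyMT-N, so thinned values cover only the deeper cells.

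Fn1, the ligand, divided the Krt8/Krt18/Rhox5+ cells of the libraries more sharply than any other member. In PyMT-N its level was 5091 CPM (5075 to 5107), from 380969 UMIs, and all 3278 cells held at least 1 UMI. In PyMT-M the level was 0.259 CPM (0.176 to 0.368), from 31 UMIs in 31 of 4849 cells. Fn1 was thus among the abundant transcripts of the class in PyMT-N and near the limit of detection in PyMT-M, with a log2 ratio of CPM, PyMT-M over PyMT-N, of -14.26 (-14.82 to -13.76). After thinning, 99.3% of cells were positive in PyMT-N and 0.041% in PyMT-M. The PyMT-N level was spread over the class, since 97.1% of cells stood at 1000 CPM or more and the tenth of cells with most UMIs held 27.1% of them.

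Fibroblasts gave the highest Fn1 of PyMT-M, at a level close to that of PyMT-N. Their level was 2528 CPM (2357 to 2709) in PyMT-M and 2679 CPM (2591 to 2769) in PyMT-N, giving a log2 ratio of -0.08 (-0.20 to 0.03), and all 45 and all 53 cells were positive. With the class widened to 1000 CPM of Col3a1 the PyMT-M level was 1319 CPM and the PyMT-N level 2636 CPM. Lymphatic cells came next among the stromal classes, at 933 CPM (743 to 1156) in PyMT-M and 1905 CPM (1854 to 1957) in PyMT-N. In PyMT-M the lymphatic value rests on 83 UMIs in 20 cells.

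In blood endothelial cells Fn1 stood at 170.6 CPM (157 to 185) in PyMT-M and 346.6 CPM (337 to 357) in PyMT-N, giving a log2 ratio of -1.02 (-1.15 to -0.90). Lymphatic cells exceeded blood endothelial cells 5.47-fold in PyMT-M and 5.50-fold in PyMT-N. In PyMT-M 2 of the 20 lymphatic cells held 55.4% of the Fn1 UMIs of that class, so nothing is read from the likeness of these folds. Fibroblasts exceeded blood endothelial cells 14.8-fold and 7.73-fold. The order of Fn1 in PyMT-M was therefore fibroblasts, lymphatic, blood endothelial, Ptprc+ and Krt8/Krt18/Rhox5+ cells. Intervals of neighbours did not overlap, but they leave out the spread between cells. In PyMT-N the Krt8/Krt18/Rhox5+ cells moved from the last place to the first and blood endothelial cells came last. Without the 6% of barcodes with the highest Scrublet doublet scores, however, Ptprc+ cells fell below blood endothelial cells, to 297.2 CPM.

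**Figure D1:**
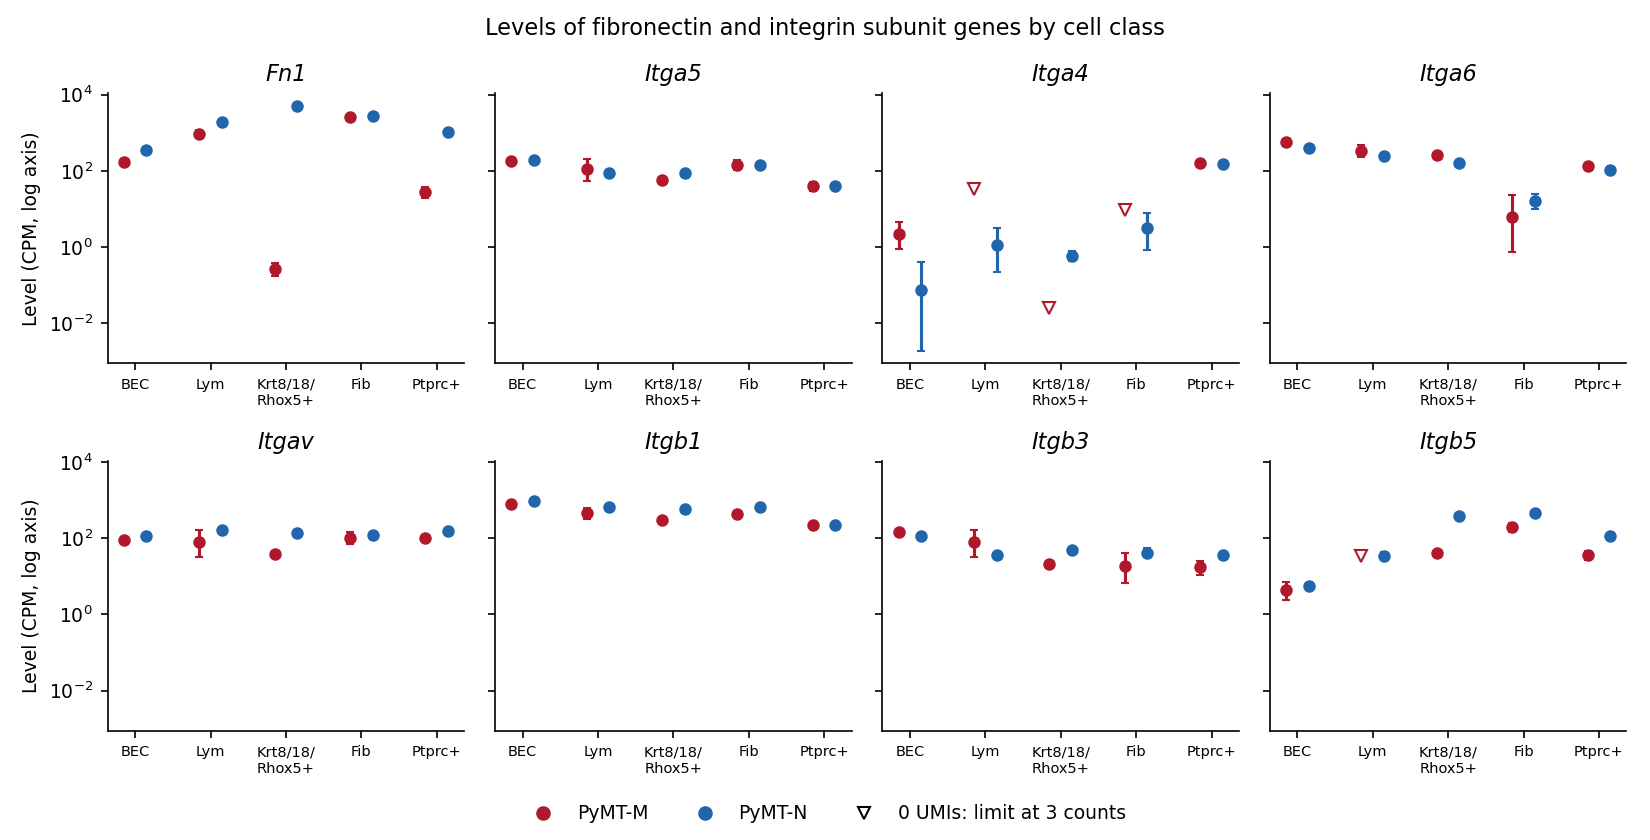
Level of each gene (CPM, log axis) in blood endothelial (BEC), lymphatic (Lym), Krt8/Krt18/Rhox5+, fibroblast (Fib) and Ptprc+ cells of PyMT-M and PyMT-N, with exact Poisson intervals at 95% as bars and open triangles at the limit of 3 counts for 0 UMIs. Fn1 in Krt8/Krt18/Rhox5+ cells stands at 0.259 CPM in PyMT-M and 5091 CPM in PyMT-N, Itga4 is highest in Ptprc+ cells, and Itgb5 stands at 4.30 and 5.46 CPM in blood endothelial cells.

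The cells that carried the Fn1 transcripts differed accordingly. Of 1878 Fn1 UMIs over all kept PyMT-M cells, 43.1% lay in the 45 fibroblasts, 29.6% in blood endothelial cells and 1.65% in Krt8/Krt18/Rhox5+ cells. Of 472913 in PyMT-N, 80.6% lay in Krt8/Krt18/Rhox5+ cells, 1.01% in blood endothelial cells and 0.741% in fibroblasts. The sort and the depletion set the numbers of cells of each class, so these shares are those of the libraries and not of the tumors.

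Among blood endothelial cells Fn1 was uneven, and more so in PyMT-M, whose cells were shallower. A UMI was found in 15.1% of cells in PyMT-M (12.3% to 18.3%) and 68.8% in PyMT-N (65.9% to 71.7%), and after thinning in 12.4% of 477 and 40.0% of 1006 cells. The 59 PyMT-M cells with most Fn1 UMIs held 94.8% of them, and the 102 such cells of PyMT-N held 54.7%, without thinning. The same share was also larger in PyMT-M for Itgav (60.2% against 43.9%), Itga5 (36.9% against 28.7%), Itga6, Itgb1 and Itgb3. The part of depth in these shares, and of free RNA in the PyMT-N shares of Fn1-positive cells, was not tested. At 1000 CPM or more stood 22 PyMT-M cells (3.77%), with 73.0% of the UMIs, and 88 PyMT-N cells (8.69%), with 46.9%. Blood endothelial markers summed to 3731 CPM in these cells of PyMT-M against 4541 CPM in the others, and to 5432 against 4767 CPM in PyMT-N. Fibroblast markers summed to 5.98 against 26.5 CPM and 3.41 against 4.06 CPM, and the capillary genes to 2015 against 5390 CPM and 3776 against 2910 CPM. Their tip-cell genes Esm1, Apln, Cxcr4 and Angpt2 summed to 2738 CPM in PyMT-M and 2084 CPM in PyMT-N, against 935.5 and 480.2 CPM in the cells below 1000 CPM of Fn1. Pericyte markers summed to 17.9 CPM against 91.8 CPM in PyMT-M and to 209.4 against 123.6 CPM in PyMT-N. The 6 epithelial markers summed to 29.9 against 1.94 CPM and 2.55 against 0.239 CPM. All these epithelial sums, and the fibroblast and PyMT-M pericyte sums at 1000 CPM or more of Fn1, rest on few UMIs. No fold is read from them. The part of these other markers in the Fn1 level was not tested. Without cells holding at least 2 fibroblast or pericyte UMIs the log2 ratio between the libraries was -0.87. That limit is a count of UMIs, not scaled to depth, and median depth was 5197 UMIs in PyMT-M against 12397 in PyMT-N. The removal was therefore not alike in the libraries.

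Cells at the edge of the class were few. The 22 PyMT-M cells with 5 or 6 UMIs of the endothelial genes, just inside, had 266.1 CPM of Fn1, and the 32 with 3 or 4, just outside, had 319.7 CPM. The 4 PyMT-N cells on either side had 79.0 CPM (1 UMI) and 878.6 CPM (9 UMIs). For the Krt8/Krt18/Rhox5+ class, PyMT-N cells with 3 or 4 UMIs of the defining genes had 3309 CPM and those with 1 or 2 had 2410 CPM, while the corresponding PyMT-M cells had 0 and 2 Fn1 UMIs.

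**Figure D2:**
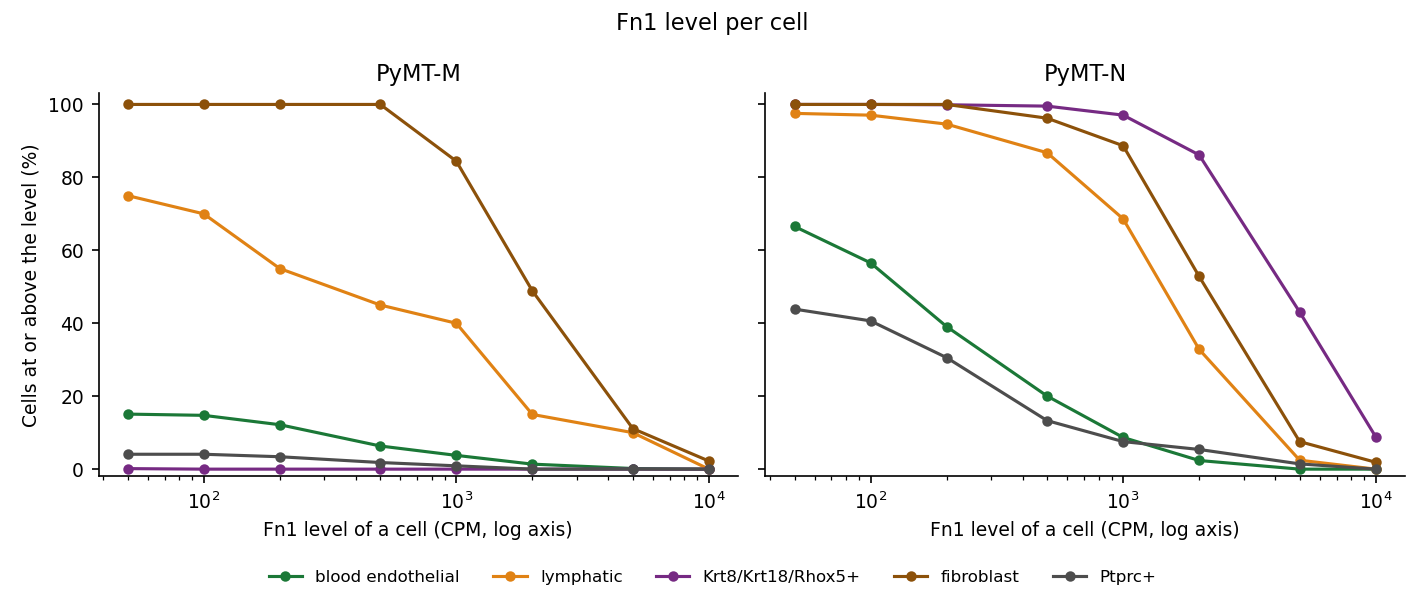
Percent of cells at or above a given Fn1 level (CPM of the single cell, log axis) in each class of PyMT-M and PyMT-N. At 1000 CPM the line of Krt8/Krt18/Rhox5+ cells stands at 97.1% in PyMT-N and 0 in PyMT-M, and the fibroblast lines stand at 88.7% and 84.4%.

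Because free RNA of an abundant transcript can enter droplets of other cells, the Fn1 level of PyMT-N was set beside other transcripts of the Krt8/Krt18/Rhox5+ class. The 20 genes of at least 200 CPM in that class with the lowest ratio in blood endothelial cells were used, among them Spp1, Dmp1, Crabp2, Cxcl14 and Lgals7. In PyMT-N blood endothelial cells they stood at a median of 0.777% of their level in Krt8/Krt18/Rhox5+ cells, a share that is low by the choice of the genes. That share of the Fn1 level is 39.6 CPM, which leaves 307.1 of the 346.6 CPM. In PyMT-M the same subtraction takes 0.00997 CPM from Fn1, since the Krt8/Krt18/Rhox5+ cells there held almost none. A separate subtraction, in which the class-defining genes were not left out of the 20, gave a log2 ratio of -0.86 between the libraries.

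Summed, the 20 genes stood at 44234 CPM in Krt8/Krt18/Rhox5+ cells of PyMT-N, of which Spp1 was 25254 CPM, so ratios to the sum weigh Spp1 most. Per UMI of the 20 genes, the Krt8/Krt18/Rhox5+ cells of PyMT-N held 0.115 Fn1 UMIs, lymphatic cells 0.521 and fibroblasts 0.219. Blood endothelial cells held 0.956, but there the excess follows from the choice of the 20 genes on their low blood endothelial level, and nothing is read from it. At their summed level of the 20 genes, 420.4 of 1905 CPM in lymphatic cells and 1410 of 2679 CPM in fibroblasts would be matched by the Krt8/Krt18/Rhox5+ ratio, although fibroblasts can express some of these genes, such as Mgp, themselves. Ptprc+ cells held 0.127, and 921.8 of their 1020 CPM would be so matched, so no expression of Fn1 was read from their PyMT-N level. The parts of free RNA and of doublets in it were not tested, and it was 297.2 CPM without the 6% of barcodes with the highest Scrublet doublet scores. In PyMT-M, where the Krt8/Krt18/Rhox5+ cells lack Fn1, Ptprc+ cells had 27.4 CPM (19.6 to 37.4), in 19 of 441 cells. The 20 genes chosen in the same way for PyMT-M stood in its Ptprc+ cells at a median of 48.8% of their Krt8/Krt18/Rhox5+ level. The part of free RNA in the Ptprc+ levels of the integrin subunits given below was not tested.

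Ptprc+ cells were also split by myeloid and lymphocyte genes, at a threshold chosen after the data were seen. Fn1 had 0 UMIs in the 211 lymphocyte-gene cells of PyMT-M, with an interval up to 7.77 CPM. The 135 of PyMT-N had 1202 CPM, and 477.1 CPM after thinning. They held 0.177 Fn1 UMIs per UMI of the 20 genes, and 782.2 of the 1202 CPM would be matched by the Krt8/Krt18/Rhox5+ ratio. No expression of Fn1 was read from this level. The 106 myeloid-gene cells of PyMT-M had 75.2 CPM (46.5 to 115). The 15 of PyMT-N had 363.6 CPM (256 to 501), at 0.093 Fn1 UMIs per UMI of the 20 genes. By the summed level of the 20 genes 447.8 CPM would be matched, but by their median share of 0.337% only 17.2 CPM. The sum weighs Spp1 most, and the part of free RNA in this level was not tested.

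**Figure D3:**
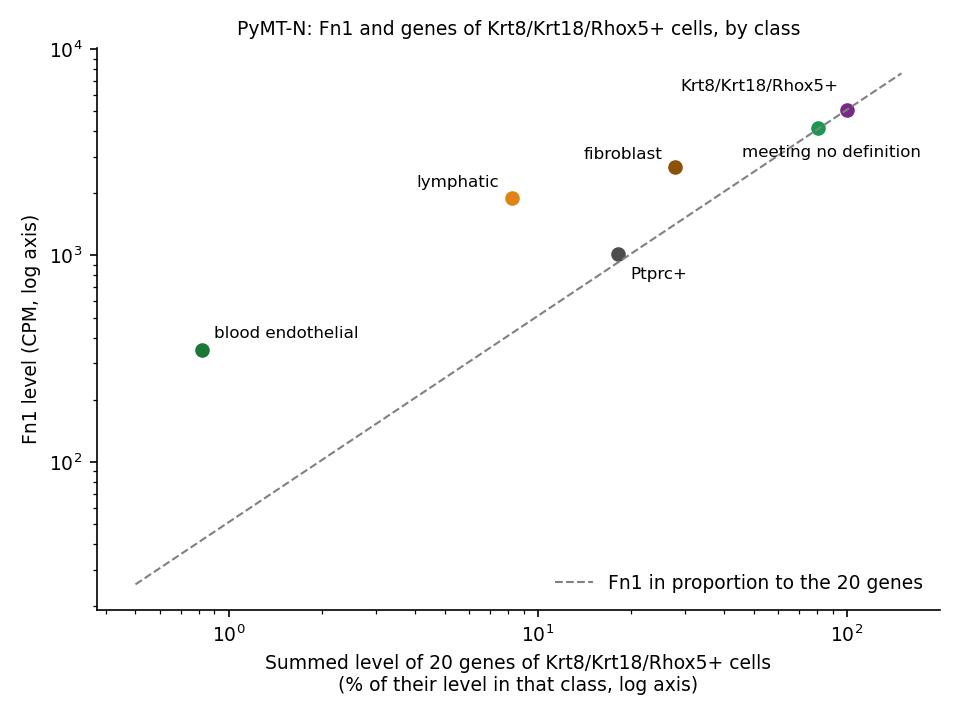
Fn1 level of each class of PyMT-N (CPM, log axis) against the summed level of 20 genes of Krt8/Krt18/Rhox5+ cells, as a percent of their level in that class (log axis). The dashed line gives Fn1 in proportion to the 20 genes. Ptprc+ cells and cells that met no definition lie near it, and lymphatic and fibroblast cells lie above it. Blood endothelial cells lie above it by the choice of the 20 genes.

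Itga5, the α subunit of the main fibronectin receptor, was highest in blood endothelial cells. It stood at 176.1 CPM (162 to 191) in PyMT-M blood endothelial cells and 194.5 CPM (187 to 202) in those of PyMT-N, giving a log2 ratio of -0.14 (-0.28 to -0.01). Fibroblasts had 143.7 and 139.1 CPM, lymphatic cells 112.4 and 89.6, Krt8/Krt18/Rhox5+ cells 56.3 and 86.2, and Ptprc+ cells 39.8 and 39.0. Intervals of blood endothelial, fibroblast and lymphatic cells overlapped in PyMT-M, as did those of lymphatic and Krt8/Krt18/Rhox5+ cells in both libraries. The level of blood endothelial cells exceeded that of Krt8/Krt18/Rhox5+ cells 3.13-fold in PyMT-M and 2.26-fold in PyMT-N.

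Itga4, whose product with β1 binds fibronectin and VCAM-1 on leukocytes, was almost confined to Ptprc+ cells among the classes measured, at 163.9 CPM (144 to 186) in PyMT-M and 148.0 CPM (133 to 164) in PyMT-N. Blood endothelial cells of PyMT-M held 7 UMIs, those of PyMT-N 1, and Krt8/Krt18/Rhox5+ cells 0 and 43. No ratio between the libraries is given for such counts. Within Ptprc+ cells of PyMT-M the level was 261.3 CPM (205 to 329) with myeloid and 134.8 CPM (104 to 172) with lymphocyte genes. In PyMT-N the order was the other way, at 127.7 CPM (68.0 to 218) in 15 myeloid-gene cells and 161.3 CPM (134 to 193) in 135 lymphocyte-gene cells, with overlapping intervals.

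Itga6, a laminin receptor subunit, was highest in blood endothelial cells, at 560.2 CPM (535 to 587) in PyMT-M and 407.4 CPM (397 to 418) in PyMT-N. Its log2 ratio there was 0.46 (0.38 to 0.54). Among members with at least 200 UMIs in blood endothelial cells, only Itga6 and Itgb3 were higher in PyMT-M. Lymphatic cells had 337.1 and 246.9 CPM and Krt8/Krt18/Rhox5+ cells 266.9 and 161.4 CPM, a log2 ratio in the latter of 0.73 (0.70 to 0.76). Fibroblasts, the class richest in Fn1 in PyMT-M, had only 2 Itga6 UMIs there and 16.1 CPM in PyMT-N, 25.4-fold below blood endothelial cells. Ptprc+ cells had 134.4 and 103.1 CPM, and the part of free RNA in these values was not tested. The intervals of lymphatic and Krt8/Krt18/Rhox5+ cells overlapped in PyMT-M.

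Itgav, which pairs with β1, β3 and β5, was the most even member over the other classes. In PyMT-N it ranged from 114.2 CPM in blood endothelial to 167.9 CPM in lymphatic cells, and in PyMT-M from 78.7 to 103.5 CPM over the same 4 classes, with Krt8/Krt18/Rhox5+ cells at 39.6 CPM. The latter rose to 137.6 CPM in PyMT-N, giving a log2 ratio of -1.80 (-1.85 to -1.75). In blood endothelial cells the ratio was -0.37 (-0.55 to -0.18).

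Itgb1, the β partner of all 4 α subunits here, was the integrin subunit with the most UMIs in blood endothelial cells. Its level there was 798.0 CPM (768 to 829) in PyMT-M and 971.1 CPM (955 to 988) in PyMT-N, giving a log2 ratio of -0.28 (-0.34 to -0.22). Lymphatic cells had 460.7 and 645.4 CPM, fibroblasts 434.4 and 645.1 CPM, Krt8/Krt18/Rhox5+ cells 300.3 and 578.2 CPM, and Ptprc+ cells 216.7 and 229.4 CPM. Lymphatic cells and fibroblasts could not be told apart in either library within counting error.

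Itgb3, the β subunit of the vitronectin receptor αvβ3 of angiogenic vessels, was highest in blood endothelial cells, at 150.3 CPM (137 to 164) in PyMT-M and 112.8 CPM (107 to 119) in PyMT-N. The log2 ratio there was 0.41 (0.26 to 0.56), whereas in Krt8/Krt18/Rhox5+ cells, at 21.7 and 48.4 CPM, it was -1.16 (-1.23 to -1.08). Lymphatic cells had 78.7 CPM in PyMT-M (31.6 to 162), overlapping blood endothelial cells, but 35.3 CPM in PyMT-N, while fibroblasts had 18.8 and 42.0 CPM and Ptprc+ cells 17.1 and 35.4 CPM. Blood endothelial cells exceeded Krt8/Krt18/Rhox5+ cells 6.92-fold in PyMT-M and 2.33-fold in PyMT-N.

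Itgb5, the other αv partner, was low where Itgb3 was highest, in blood endothelial cells. It was highest in fibroblasts, at 193.7 CPM (149 to 248) in PyMT-M and 452.5 CPM (417 to 490) in PyMT-N, and stood at 41.7 and 385.0 CPM in Krt8/Krt18/Rhox5+ cells, giving a log2 ratio of -3.21 (-3.25 to -3.16). Blood endothelial cells had 4.30 CPM (14 UMIs) and 5.46 CPM (75 UMIs). Less the median shares of the 20 genes, 3.85% and 0.777% of the Krt8/Krt18/Rhox5+ level, 2.69 and 2.47 CPM are left. Ptprc+ cells had 36.3 and 114.1 CPM. In lymphatic cells of PyMT-N all 96 Itgb5 UMIs (35.0 CPM) lay in 20 of 204 cells. The 20 lymphatic cells of PyMT-M held 0 UMIs, with an interval up to 41.45 CPM. In PyMT-N the 20 background genes stood at 8.26% of their Krt8/Krt18/Rhox5+ level in lymphatic cells and at 18.1% in Ptprc+ cells. The part of free RNA in Itgb5 there was not tested.

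In blood endothelial and Krt8/Krt18/Rhox5+ cells the subunits of a receptor were found in the same thinned cells about as often as their single shares give. UMIs of both Itga5 and Itgb1 were seen in 35.4% of blood endothelial cells in PyMT-M (31.1% to 39.9%) and 40.1% in PyMT-N (37.0% to 43.2%), with products of the single shares at 34.4% and 39.6%. In Krt8/Krt18/Rhox5+ cells the pair was seen in 9.80% and 16.2%. Itgav and Itgb5 were seen together in 1.38% of Krt8/Krt18/Rhox5+ cells in PyMT-M against 20.6% in PyMT-N, and in 2 of 477 and 5 of 1006 blood endothelial cells. Itgav and Itgb3 were seen together in 9.22% and 7.75% of blood endothelial cells, with products at 7.52% and 6.55%, and in 0.846% and 4.79% of Krt8/Krt18/Rhox5+ cells. Ptprc+ cells of PyMT-N differed from their products, with Itga5 and Itgb1 together in 3.03% (1.23% to 6.14%) beside 0.995% and Itga4 and Itgb1 in 4.33% (2.10% to 7.82%) beside 7.96%.

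With a difference called at 2-fold, and only for genes reaching 200 UMIs in the class when the libraries are added, 6 of the 8 members entered the count in blood endothelial cells, without Itga4 and Itgb5. None of the 6 was 2-fold higher in PyMT-M, where 2.69% of 8174 genes were, and 1, Fn1, was 2-fold lower, where 2.68% were. Their median log2 ratio was -0.21, beside 0.0043 over all genes tested. Fn1 lay just past the limit, and 6 alternatives put it short of the limit, from -0.99 without the highest Scrublet scores to -0.76 with a limit on gene number. With cells of several definitions kept it was -1.55. That setting keeps in the class cells that were also lymphatic (8 in PyMT-M and 174 in PyMT-N) or Ptprc+ (6 and 58).

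In Krt8/Krt18/Rhox5+ cells 7 of the 8 members entered, without Itga4. None was 2-fold higher in PyMT-M, where 19.7% of 12521 genes were, and 4 were 2-fold lower (Fn1, Itgav, Itgb3 and Itgb5), where 22.3% were. Their median log2 ratio was -1.16, beside -0.04 over all genes tested. Itgb1, at -0.94 (-0.97 to -0.92), was just short of the limit, Itga5 stood at -0.61 (-0.66 to -0.57), and Itga6 alone was above 0. Left out of the total, mitochondrial, ribosomal and hemoglobin transcripts shifted all genes of the class upward, from a median of -0.04 to 0.16, and Itgb3 to -0.95, short of the limit.

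**Figure D4:**
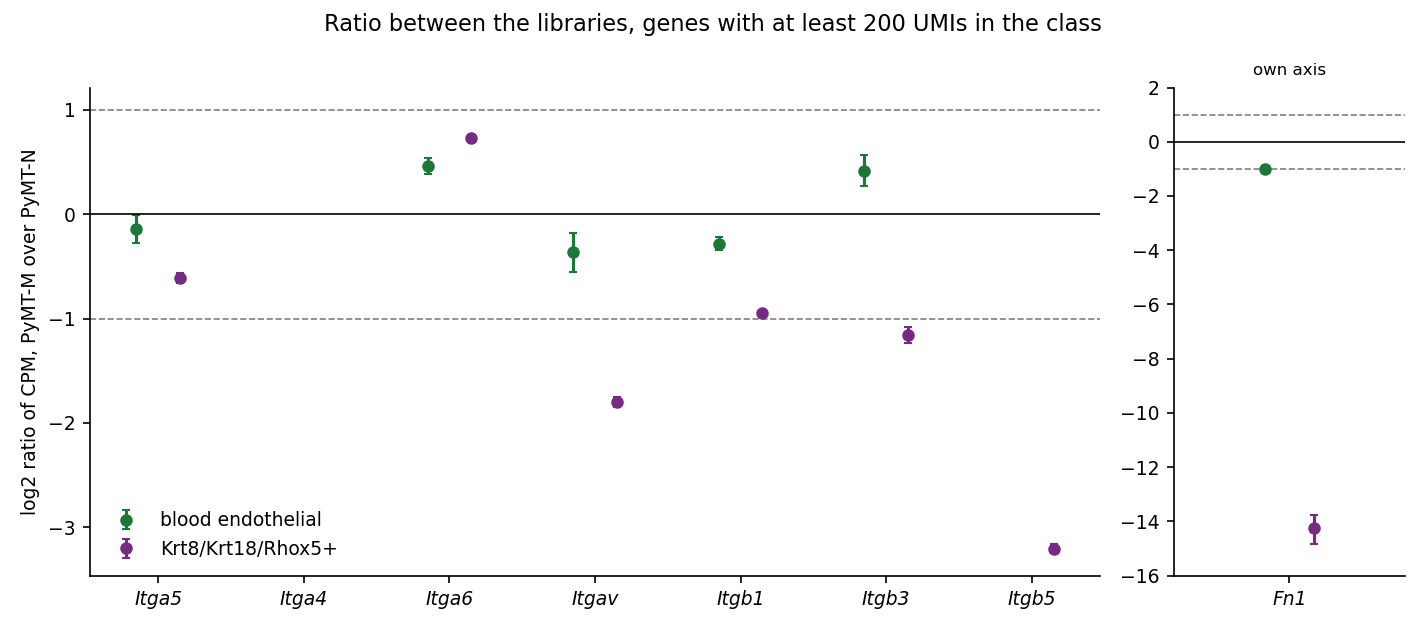
Log2 ratio of CPM, PyMT-M over PyMT-N, of each member with at least 200 UMIs in blood endothelial or Krt8/Krt18/Rhox5+ cells, with exact intervals at 95% and dashed lines at 2-fold. Itgb3 lies at 0.41 in blood endothelial cells and -1.16 in Krt8/Krt18/Rhox5+ cells, and Fn1, on its own axis, at -1.02 and -14.26.

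Within blood endothelial cells Fn1 followed the tip-cell genes in both libraries. Cells with at least 500 CPM of Esm1, Apln, Cxcr4 and Angpt2, genes of sprouting endothelium, had 281.9 CPM of Fn1 in PyMT-M (278 cells) and the other 305 had 50.4 CPM, giving a log2 ratio of 2.48 (2.14 to 2.85). In PyMT-N the 355 such cells had 564.0 CPM and the other 658 had 222.5 CPM, giving a log2 ratio of 1.34 (1.26 to 1.43). Both sides of the split were higher in PyMT-N, so the higher Fn1 there was found in cells above and below this limit of the tip genes. Itgav, Itgb3 and Itgb1 were higher on the tip side too, with log2 ratios of 0.96, 0.75 and 0.19 in PyMT-M against 0.33, 0.43 and 0.26 in PyMT-N. Itga5 was higher in PyMT-M (0.65, 0.40 to 0.90) and stood at -0.02 (-0.14 to 0.09) in PyMT-N, and Itga6 stood at 0.03 and -0.05.

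No other state list kept 1 sign of Fn1 in both libraries at 250, 500 and 1000 CPM. PyMT-M cells with the capillary genes Rgcc, Gpihbp1, Cd36 and Fabp4 at 500 CPM or more had 114.8 CPM of Fn1, against 765.1 CPM in the 47 cells below. This log2 ratio, -2.74 (-2.99 to -2.48), was larger in size than that of the tip list and was -3.66 at 250 and -2.34 at 1000 CPM. The 24 cells below 250 CPM held 213 of the 556 Fn1 UMIs. In PyMT-N the capillary list gave 343.9 against 383.0 CPM. With the venous genes Vwf, Selp, Ackr1 and Vcam1 Fn1 was at 145.7 against 179.1 CPM in PyMT-M and 442.4 against 228.0 CPM in PyMT-N. Cycling cells (Mki67, Top2a and Cenpf) had 356.8 against 134.9 CPM in PyMT-M and 211.6 against 356.7 CPM in PyMT-N. Their Itgb3 was lower in both libraries, with log2 ratios of -0.54 (-0.97 to -0.14) and -1.26 (-1.71 to -0.84). The arterial genes Gja4, Gja5, Hey1 and Sox17 went with 211.4 against 166.0 CPM of Fn1 in PyMT-M and 436.5 against 339.0 CPM in PyMT-N. At 250 CPM the sign changed for the venous and arterial lists in PyMT-M and for the capillary and cycling lists in PyMT-N, whereas the tip list kept it at 250 and 1000 CPM in both.

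**Figure D5:**
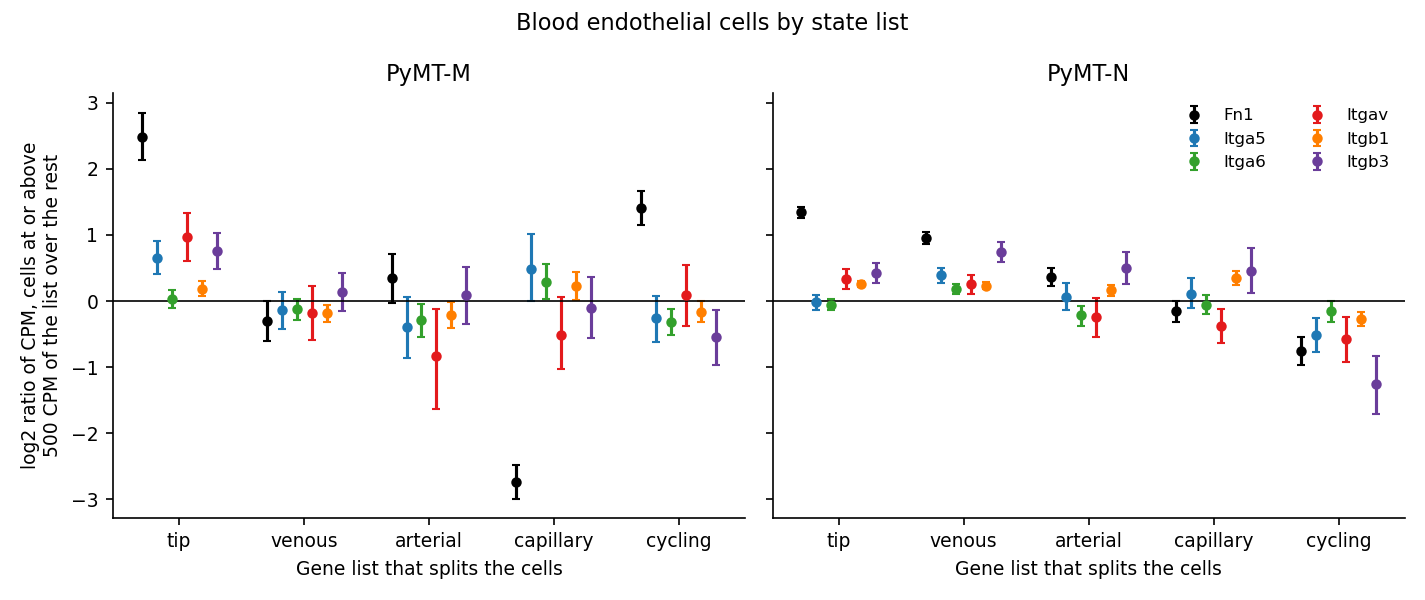
Log2 ratio of CPM of 6 members between blood endothelial cells at or above 500 CPM of a state list and the other blood endothelial cells, in PyMT-M and PyMT-N, with exact intervals at 95% over counts. Fn1 lies at 2.48 and 1.34 for the tip list and on opposite sides of 0 for the cycling list.

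Cycling Krt8/Krt18/Rhox5+ cells of PyMT-N held less Fn1. The 84 cells with at least 500 CPM of Mki67, Top2a and Cenpf had 2299 CPM and the other 3194 had 5210 CPM, giving a log2 ratio of -1.18 (-1.21 to -1.15), and Itgb5 fell from 391.6 to 231.2 CPM. Itga6 was higher in the cycling cells, at 281.8 against 156.3 CPM. Their median depth was 33271 UMIs against 20574. In PyMT-M the 1990 cycling cells had more Itgb5 than the other 2859, at 45.1 against 39.0 CPM (log2 ratio 0.21, 0.13 to 0.29), and the 31 Fn1 UMIs gave a log2 ratio of 0.62 (-0.49 to 1.75).

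The wider pathway list, of 50 genes for other integrin subunits, other ligands, matrix assembly and adhesion adaptors, was chosen with earlier results of these data known. In blood endothelial cells 29 had at least 200 UMIs, of which 5 were 2-fold higher and 1 was 2-fold lower in PyMT-M, beside 2.69% and 2.68% of all genes, and their median log2 ratio was 0.16. Of 8 ligands 4 were higher. These were Vcam1, the α4β1 ligand, at 70.0 against 20.1 CPM (log2 ratio 1.80), Thbs1, thrombospondin 1, at 185.3 against 54.7 CPM (1.76), and the matricellular Ccn1 and Ccn2, named after their values were seen, at 1.31 and 1.17. Spp1, osteopontin, was lower, at 40.5 against 190.7 CPM (-2.24). Spp1 stood at 25254 CPM in Krt8/Krt18/Rhox5+ cells of PyMT-N, of which the blood endothelial value is 0.755%. Spp1 is itself one of the 20 genes chosen for a low share, and the part of free RNA in its ratio was not tested. Tgfb1 was at -0.43.

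Among 5 other integrin subunits, Itga3, of a laminin receptor, was higher (98.5 against 46.9 CPM, log2 ratio 1.07). Itgb4, the β partner of α6 in hemidesmosomes, stood at 1.00, just short of the limit, and Itga9 and Itga2 at -0.80 and -0.59. None of the 15 adhesion adaptors passed 2-fold. They ranged from Vcl, vinculin, at 0.50 and Zyx, zyxin, at 0.41 down to Tns3 at -0.36 and Pxn, paxillin, at -0.38. Of the matrix assembly genes Tgm2, a transglutaminase, alone had 200 UMIs and stood at 0.27.

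Over the 10 groups of class and library, which share libraries and depth, Itga5 and Itgb1 were the most alike of the member pairs (Pearson r of log2(CPM + 5) of 0.90, n = 10). Fn1 was most like Itgav among the members (r = 0.76). Of 11897 genes with at least 500 UMIs, the most like each member were Hspg2 for Itga5 (r = 0.97), Dync1li2 for Itgb1 (0.98), Adamts9 for Itgb3 (0.97), Tbx15 for Itgb5 (0.99), Rbmx for Itgav (0.96), Zfand4 for Itga6 (0.94), BE692007 for Itga4 (1.00) and Dnaja4 for Fn1 (0.94). These r values describe 10 points.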

How the data were processed

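The authors deposited unnormalized UMI counts per gene and cell barcode for 2 libraries, made with Cell Ranger 8.0.0 (build mm39, both per the submitters' processing notes). The annotation version was not stated, and no coordinates are reported, since the reference at hand is of another build. The labels name collagenase I for dissociation, the study's methods collagenase II and dispase II. Barcodes with at least 200 genes and at most 10% mitochondrial UMIs were kept, of 7821 in PyMT-M (85.9%) and 6974 in PyMT-N (80.4%), with 139729636 and 114669155 UMIs.

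Members, classes, state lists and pathway list were chosen with earlier results of these data known. Blood endothelial cells needed at least 5 UMIs of their genes and at most 1 of Krt8, Krt18 and Rhox5, lymphatic and Krt8/Krt18/Rhox5+ cells at least 3, fibroblasts at least 3000 CPM of Col3a1, and Ptprc+ cells 1 UMI. Cells both blood endothelial and lymphatic counted as lymphatic, and those meeting any other pair of definitions were set aside (60 and 88). No doublets were removed in the values reported. Counts were summed per class and library and compared as CPM, with exact Poisson, Clopper-Pearson and conditional ratio intervals. With 1 library a group no test was run. A count of 0 was set against 3 counts. Named pathway genes are the 2 highest and 2 lowest ratios of each group. The calculation of the ratios was tried on simulated class sums with counting error only. These held no spread between cells or libraries, so nothing about that spread is read from them. Alternatives (effects in the closing section) covered scaling, filters, class thresholds, Scrublet doublet scores, weighting of cells, background subtraction, thinning and gene minimums. The tools were scanpy 1.11.5, scipy 1.17.1, matplotlib 3.10.9 and pandas 2.3.3 under Python 3.11.15, with numpy 2.4.6.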

Additional observations from a re-analysis of the deposited data

Results flagged for a closer look

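The library with the higher Itgb3 was not the same in both main classes. Its log2 ratio of CPM, PyMT-M over PyMT-N, was 0.41 in blood endothelial and -1.16 in Krt8/Krt18/Rhox5+ cells, and neither interval reached 0. The difference between the classes was not tested, since each value comes from 1 pair of libraries.

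Fn1 also moved in opposite directions with a pair of state lists in blood endothelial cells. The log2 ratio of cells with the venous genes over the others was -0.30 in PyMT-M against 0.96 in PyMT-N, and that of cycling cells over the others was 1.40 in PyMT-M and -0.75 in PyMT-N. These differences were not tested, and the venous one in PyMT-M and the cycling one in PyMT-N changed sign at a lower threshold of the lists.

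Cells that met no class definition, which no comparison used, held Fn1 at 20.4 CPM in PyMT-M (721 cells) and 4165 CPM in PyMT-N (693 cells). Per UMI of the 20 background genes, the PyMT-N cells held 0.117 Fn1 UMIs, beside 0.115 in Krt8/Krt18/Rhox5+ cells.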

How the results depend on the processing

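No paired analysis was possible because each group is 1 library, and leaving out a library leaves no comparison. The Fn1 log2 ratio in blood endothelial cells kept its sign under 12 of 12 alternatives. The changes of scaling shift all genes alike and left it at -1.02 and -1.03, so they say little about the sign. It was -0.76 with gene number within 2-fold of the median, -1.55 with cells of several definitions kept, -1.44 as a mean over cells, -0.86 with free RNA subtracted, -1.36 after thinning and, chosen after seeing the data, -0.87 without cells with fibroblast or pericyte UMIs. The count of members 2-fold lower, 1 in the values reported, was 0 with the limits on gene number, 5% mitochondrial UMIs, stricter classes, Scrublet, free RNA or fibroblast and pericyte UMIs, and 2 with cells of several definitions kept. Of all genes tested, 1.8% to 3.5% were 2-fold lower in the settings that gave 0, and 5.17% with cells of several definitions kept. The count 2-fold higher was 1, Itga4, with no gene minimum, where 11.95% of 15294 genes were. Pathway genes 2-fold higher, 5 in the values reported, were 3 after thinning and 13 with no minimum, beside 2.42% and 11.95% of all genes. Those lower, 1, were 2 with cells of several definitions kept and 2 with no minimum, beside 5.17% and 6.01% of all genes. In Krt8/Krt18/Rhox5+ cells Fn1 was -12.57 with cells of several definitions kept, -15.20 after thinning and -13.74 without cells with fibroblast or pericyte UMIs, and 3 to 5 members were 2-fold lower. A total without mitochondrial, ribosomal and hemoglobin transcripts gave the count of 3, where 18.9% of all genes tested in the class were 2-fold lower. Over the alternatives this share of all genes ran from 12.1% to 30.1%.

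With cells of several definitions kept, Itga5 in blood endothelial cells reversed to 0.0255 and Itga4 to -1.30. At 250 CPM of the state lists Fn1 reversed to 0.71 for venous genes in PyMT-M and to 0.005583 for cycling genes in PyMT-N. The causes were not tested. Fn1 in PyMT-N Ptprc+ cells ranged from 297.2 to 1096 CPM over 4 alternatives. Depth limits Itga4 and Itgb5 in blood endothelial cells, Itga4 with 7 UMIs in PyMT-M against 1 in PyMT-N and Itgb5 with 14 against 75, and all lymphatic values of PyMT-M.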
